A study of Mus musculus with 8 samples.

Results

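Macrophages that line the borders of the brain, in the meninges, around vessels and in the choroid plexus, are told from other cells by a set of surface and secreted proteins, and 10 genes of that set were followed here in the brainstem of mice lacking Ndufs4 in glutamatergic neurons. The genes were Mrc1, Cd163, Lyve1, Stab1, Msr1, F13a1, Pf4, Ms4a7, Adgre1 and Ccr2. They were found by gene symbol on the array, where 14 of the 25697 probes carried 1 of these symbols, and all 14 probes are reported. Brainstem came from 4 late-stage Vglut2:Ndufs4cKO mice and from 4 Vglut2:Ndufs4cCT littermates of the C57/BL6J strain, with 1 Illumina beadchip array per mouse. By the methods of the study, Vglut2:Ndufs4cKO mice had 1 deleted and 1 floxed Ndufs4 allele and Vglut2:Ndufs4cCT mice had 1 floxed and 1 wild-type allele. Both groups carried the same Cre transgene under the Slc17a6 (Vglut2) promoter, and the deleted allele was present in every cell of a Vglut2:Ndufs4cKO mouse, macrophages included. Mice from both groups lay on 1 beadchip, with the groups at separate positions of it, so that group and position cannot be told apart. The purpose of the comparison was to see which genes changed in this region late in the disease.

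Border macrophages differ from microglia, the macrophages inside the brain tissue, in that they sit next to vessels and connective tissue and sample blood, cerebrospinal fluid and matrix. Much of their equipment consists of scavenger receptors, proteins that bind sugars, modified lipoproteins, haemoglobin or hyaluronan at the cell surface and take them into the cell. Monocytes are a further source of brain macrophages under inflammation, and they leave the blood through Ccr2, the receptor for the chemokines Ccl2, Ccl7 and Ccl12. Several of the genes are also made by other cells, Adgre1 by microglia, Pf4 by megakaryocytes and Stab1 and Lyve1 by some endothelial cells.

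Across the arrays, 14720 to 15042 probes were detected in Vglut2:Ndufs4cKO mice and 14293 to 14723 in Vglut2:Ndufs4cCT mice, where detection means a detection p under 0.05 against the negative control beads. Signals below are log2 values after background removal, scaling and an added offset of 16. A probe was tested when it was detected on at least 3 of 8 arrays, and it passed when its limma p, adjusted over the 15225 probes tested, was under 0.05. Of the targeted gene, the Ndufs4 probe ILMN_1234521 fell by 1.41 on the log2 scale in Vglut2:Ndufs4cKO mice (adjusted p = 0.0228), while the other 3 Ndufs4 probes, not placed here relative to the deleted part, did not pass. Of 16 brainstem genes on the array 15 were tested, and none passed. Vglut2:Ndufs4cKO replicate 4 stood apart. Its choroid plexus markers summed to a log2 signal of 15.39, against 11.66, 11.92 and 12.33 in the other Vglut2:Ndufs4cKO mice and 11.37 to 13.40 in Vglut2:Ndufs4cCT mice, and its forebrain and cerebellum markers were also the highest of all arrays at 13.52. The values of the 10 genes are therefore given with and without this mouse where it moved them.

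Of the 10 genes, 8 had a tested probe. The receptors Msr1 and Ccr2 each had 1 probe, and neither was detected on any array. Mrc1, Cd163, Stab1, F13a1 and Pf4 each had 1 probe detected on all 8 arrays, and Adgre1 had 2. Lyve1 and Ms4a7 were near the limit, each detected on 3 of 4 Vglut2:Ndufs4cKO arrays and 2 of 4 Vglut2:Ndufs4cCT arrays. A further probe each for Cd163 (ILMN_2627340), Ms4a7 (ILMN_3019158) and Adgre1 (ILMN_2756353) was detected on no array, so that for these 3 genes the probes disagreed on detection. Each signal was the mean of 23 to 53 beads, with a bead standard error between 2.79% and 10.2% of the signal.

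**Figure D1:**
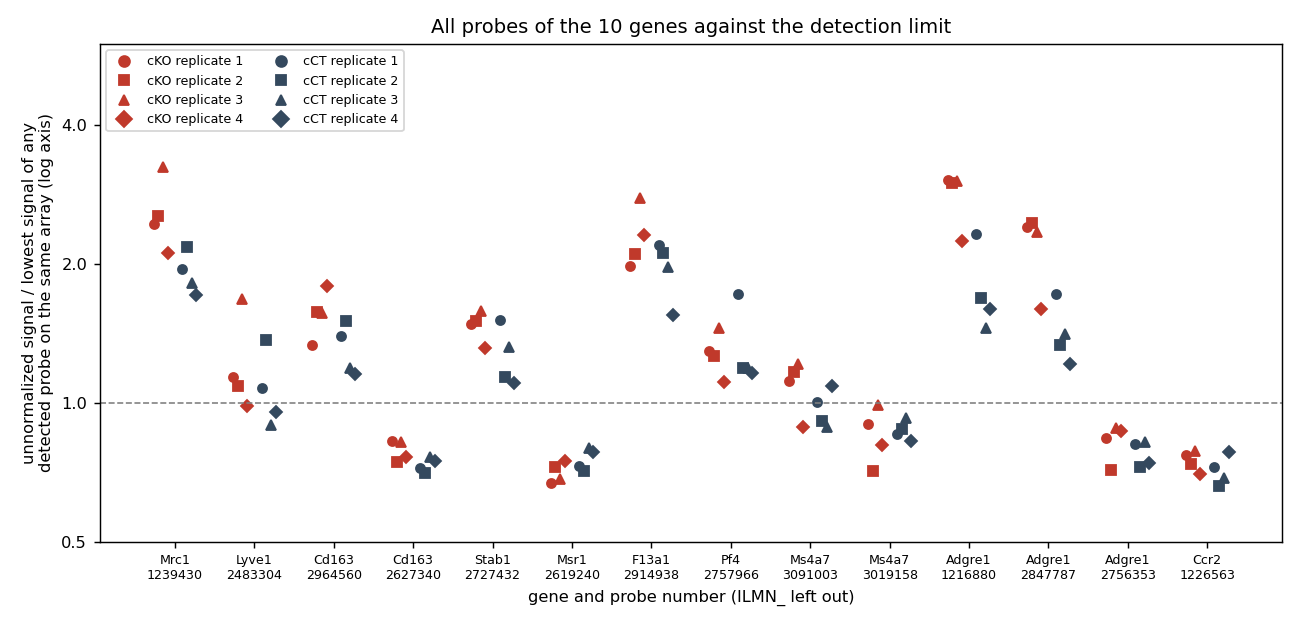
Unnormalized signal of all 14 probes on each of 8 arrays, divided by the lowest signal of any detected probe on the same array (log axis, dashed line at 1), with Vglut2:Ndufs4cKO mice in red left of Vglut2:Ndufs4cCT mice in blue and a marker shape per replicate. The 5 probes detected on no array lie below the line in all mice, including the single probes of Msr1 and Ccr2, and Lyve1 and ILMN_3091003 of Ms4a7 straddle it.

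None of the 9 tested probes passed in either direction. Over all 15225 tested probes 0.67% passed as higher in Vglut2:Ndufs4cKO mice and 0.0328% as lower. Before adjustment, 3 of the 9 probes had a p under 0.05, all of them higher in Vglut2:Ndufs4cKO mice (1 of Mrc1 and 2 of Adgre1), against 6.86% of all tested probes in that direction and 9.89% in either. The log2 fold change was above 0 for 8 of the 9 probes, as for 51.8% of all probes, and the median over the 9 was 0.43, against 0.01 over all probes tested. These counts leave out the 5 probes under the detection limit. The values come from whole tissue, in which a change in cell number and a change in RNA per cell cannot be told apart.

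**Figure D2:**
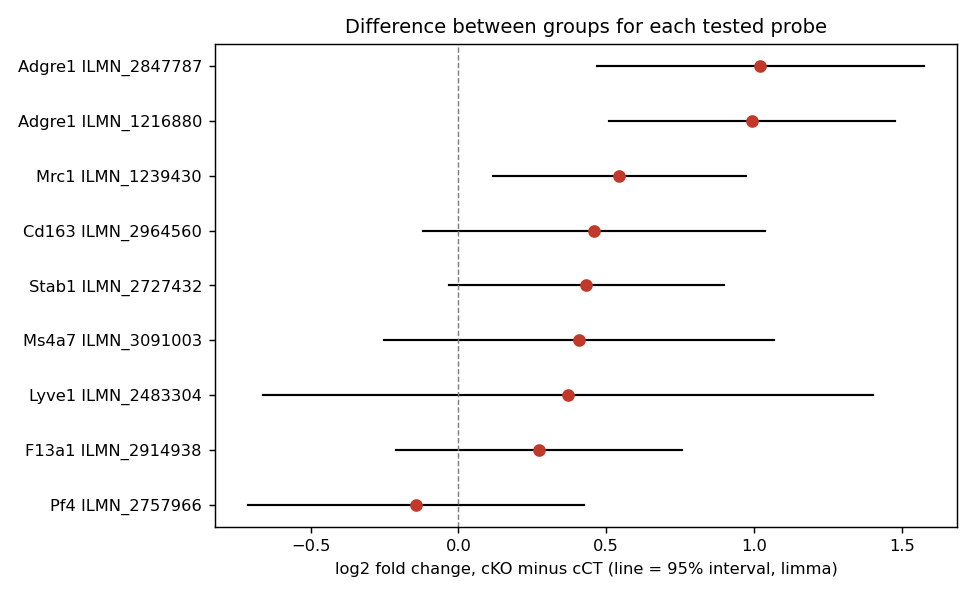
Log2 fold change of each of the 9 tested probes, Vglut2:Ndufs4cKO minus Vglut2:Ndufs4cCT (points), with the 95% interval from limma before adjustment (lines). Both probes of Adgre1 lie near 1, Mrc1 at 0.54, and the intervals of the other 6 probes cover 0.

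Mrc1, the mannose receptor, which takes up glycoproteins and collagen fragments, had the smallest p of the 4 scavenger receptors tested. Its probe ILMN_1239430 had log2 signals of 8.61, 8.69, 9.07 and 8.40 in Vglut2:Ndufs4cKO replicates 1 to 4, and 8.05, 8.58, 8.07 and 7.89 in Vglut2:Ndufs4cCT replicates 1 to 4. The groups overlapped only in that Vglut2:Ndufs4cKO replicate 4 lay below Vglut2:Ndufs4cCT replicate 2. The means were 8.69 ± 0.28 in Vglut2:Ndufs4cKO mice and 8.15 ± 0.30 in Vglut2:Ndufs4cCT mice (SD, n = 4 each), and the log2 fold change was 0.54 (95% interval 0.12 to 0.97, standard error 0.19, adjusted p = 0.372, two-sided exact permutation p = 0.0571). Mrc1 did not pass, and its adjusted p ranged from 0.0919 to 0.747 over the alternatives. The log2 fold change was between 0.42, without Vglut2:Ndufs4cKO replicate 3, and 0.69, without Vglut2:Ndufs4cCT replicate 2, when 1 array was left out, and 0.64 without Vglut2:Ndufs4cKO replicate 4 (adjusted p = 0.115).

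Lyve1, a hyaluronan receptor of perivascular and meningeal macrophages and of lymphatic vessels, varied more between mice of a group than between groups. Log2 signals of ILMN_2483304 were 6.51, 6.26, 7.64 and 5.89 in Vglut2:Ndufs4cKO mice, and 6.16, 7.39, 5.51 and 5.76 in Vglut2:Ndufs4cCT mice. A single mouse of each group, Vglut2:Ndufs4cKO replicate 3 and Vglut2:Ndufs4cCT replicate 2, stood well above its littermates. The means were 6.57 ± 0.75 in Vglut2:Ndufs4cKO mice and 6.20 ± 0.83 in Vglut2:Ndufs4cCT mice, and the log2 fold change of 0.37 had a 95% interval from -0.66 to 1.40 (adjusted p = 0.821), which leaves room for a change of either sign. Leaving out 1 array at a time moved the log2 fold change between 0.01 and 0.76, and it was 0.60 without Vglut2:Ndufs4cKO replicate 4.

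Cd163 takes up complexes of haemoglobin with haptoglobin. Its detected probe, ILMN_2964560, had log2 signals of 7.08, 7.56, 7.46 and 8.01 in Vglut2:Ndufs4cKO mice, against 7.15, 7.68, 6.80 and 6.64 in Vglut2:Ndufs4cCT mice. The groups overlapped, with Vglut2:Ndufs4cKO replicates 1 to 3 below Vglut2:Ndufs4cCT replicate 2 and Vglut2:Ndufs4cKO replicate 1 also below Vglut2:Ndufs4cCT replicate 1. Means were 7.53 ± 0.38 in Vglut2:Ndufs4cKO mice and 7.07 ± 0.46 in Vglut2:Ndufs4cCT mice, a log2 fold change of 0.46 (95% interval -0.12 to 1.04, adjusted p = 0.611). The highest value was that of Vglut2:Ndufs4cKO replicate 4, the mouse with the high choroid plexus markers, and without it the log2 fold change was 0.30, while it was 0.66 without Vglut2:Ndufs4cCT replicate 2. With the choroid plexus level as a covariate it was 0.42 (adjusted p = 0.422).

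Stab1, which clears modified lipoproteins and matrix fragments, gave tight values in Vglut2:Ndufs4cKO mice (7.41, 7.44, 7.48 and 7.12) and scattered ones in Vglut2:Ndufs4cCT mice (7.38, 6.72, 7.18 and 6.44) with ILMN_2727432. Vglut2:Ndufs4cKO replicates 1 to 3 were above all Vglut2:Ndufs4cCT mice, and replicate 4 was below 2 of them. The means of 7.36 ± 0.16 in Vglut2:Ndufs4cKO mice and 6.93 ± 0.43 in Vglut2:Ndufs4cCT mice differed by a log2 fold change of 0.43 (95% interval -0.03 to 0.90, adjusted p = 0.543), and by 0.51 without Vglut2:Ndufs4cKO replicate 4 (adjusted p = 0.236). It was 0.27 without Vglut2:Ndufs4cCT replicate 4, whose value was the lowest, and 0.14 without background correction.

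Msr1, the class A scavenger receptor for modified lipoproteins, was at background. The unnormalized signals of ILMN_2619240 were 157.1, 165.3, 152.6 and 171.0 in Vglut2:Ndufs4cKO mice and 182.7, 186.6, 193.9 and 184.5 in Vglut2:Ndufs4cCT mice, with detection p between 0.482 and 0.974. Although the raw values of the groups do not overlap, the median signal of all undetected probes was also lower in Vglut2:Ndufs4cKO mice, at 185.3 to 191.2, against 192.8 to 211.6 in Vglut2:Ndufs4cCT mice. No fold change is given, since both groups were below the detection limit.

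Among the secreted proteins, F13a1, the A subunit of clotting factor XIII, which crosslinks fibrin and is made by macrophages and platelets, was detected in all mice. ILMN_2914938 had log2 signals of 8.15, 8.28, 8.77 and 8.60 in Vglut2:Ndufs4cKO mice, and 8.31, 8.52, 8.26 and 7.62 in Vglut2:Ndufs4cCT mice. The groups overlapped, with Vglut2:Ndufs4cCT replicate 4 below all Vglut2:Ndufs4cKO mice and Vglut2:Ndufs4cKO replicates 3 and 4 above all Vglut2:Ndufs4cCT mice. The means of 8.45 ± 0.29 in Vglut2:Ndufs4cKO mice and 8.18 ± 0.39 in Vglut2:Ndufs4cCT mice gave a log2 fold change of 0.27 (95% interval -0.21 to 0.76, adjusted p = 0.715). It was 0.09 without Vglut2:Ndufs4cCT replicate 4 and 0.16 without Vglut2:Ndufs4cKO replicate 3.

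Pf4, a heparin-binding chemokine, was the 1 gene of the 8 tested whose mean was lower in Vglut2:Ndufs4cKO mice, and its direction was not stable. ILMN_2757966 had log2 signals of 6.99, 6.86, 7.24 and 6.45 in Vglut2:Ndufs4cKO mice and 7.73, 6.91, 6.80 and 6.66 in Vglut2:Ndufs4cCT mice. The mean of Vglut2:Ndufs4cCT mice rested on the high replicate 1. Means were 6.88 ± 0.33 in Vglut2:Ndufs4cKO mice and 7.03 ± 0.48 in Vglut2:Ndufs4cCT mice, a log2 fold change of -0.14 (95% interval -0.71 to 0.43, adjusted p = 0.891), which became 0.09 without Vglut2:Ndufs4cCT replicate 1 and 0.00 without Vglut2:Ndufs4cKO replicate 4. Platelet and megakaryocyte genes, which could carry Pf4 from blood, had 0 of 8 tested genes passing, and their summed log2 signal was 9.21 to 9.74 in Vglut2:Ndufs4cKO mice and 9.51 to 10.03 in Vglut2:Ndufs4cCT mice.

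Ms4a7, a membrane protein of the MS4A family that marks border macrophages against microglia, was dim. Log2 signals of ILMN_3091003 were 6.42, 6.55, 6.62 and 5.40 in Vglut2:Ndufs4cKO mice, against 5.83, 5.69, 5.46 and 6.39 in Vglut2:Ndufs4cCT mice. Vglut2:Ndufs4cKO replicates 1 to 3 were above every Vglut2:Ndufs4cCT mouse, while replicate 4 was the lowest of all 8. The means of 6.25 ± 0.57 in Vglut2:Ndufs4cKO mice and 5.84 ± 0.39 in Vglut2:Ndufs4cCT mice differed by a log2 fold change of 0.41 (95% interval -0.25 to 1.07, adjusted p = 0.686), and by 0.69 without Vglut2:Ndufs4cKO replicate 4 (adjusted p = 0.117). The other probe, ILMN_3019158, stayed under the detection limit in all mice.

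Adgre1, the F4/80 antigen of mouse macrophages, was the gene of the set with the largest difference, about 2-fold with both detected probes. Without background correction the log2 fold changes of its probes were 0.60 (adjusted p = 0.0670) and 0.53 (adjusted p = 0.127), in place of the 0.99 and 1.02 below. ILMN_1216880 had log2 signals of 9.04, 9.02, 8.94 and 8.53 in Vglut2:Ndufs4cKO mice, against 8.43, 7.98, 7.46 and 7.70 in Vglut2:Ndufs4cCT mice. It was the 1 probe of the 9 whose groups did not overlap, a separation in this direction that 4.01% of all tested probes had. The means of 8.88 ± 0.24 in Vglut2:Ndufs4cKO mice and 7.89 ± 0.42 in Vglut2:Ndufs4cCT mice put the log2 fold change at 0.99 (95% interval 0.51 to 1.48, standard error 0.21), or 1.99-fold. Its limma p of 0.00112 was 0.0970 after adjustment, and the two-sided exact permutation p of 0.0286 was the smallest that 4 mice against 4 allow.

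The second Adgre1 probe, ILMN_2847787, gave 8.58, 8.62, 8.43 and 7.71 in Vglut2:Ndufs4cKO mice and 7.74, 7.30, 7.38 and 6.83 in Vglut2:Ndufs4cCT mice. Only Vglut2:Ndufs4cKO replicate 4 kept the groups from separating, since it lay just under Vglut2:Ndufs4cCT replicate 1. Its log2 fold change was 1.02 (95% interval 0.47 to 1.57, standard error 0.25, adjusted p = 0.142, two-sided exact permutation p = 0.0571). Thus neither probe passed with all mice included. Without Vglut2:Ndufs4cKO replicate 4 both passed, with log2 fold changes of 1.11 (adjusted p = 0.0390) and 1.23 (adjusted p = 0.0256), in a comparison in which 1.56% of all tested probes passed as higher. Without Vglut2:Ndufs4cCT replicate 1 the first probe passed at 1.17 (adjusted p = 0.0439), where 0.425% of all probes did, and the second was at 1.16 (adjusted p = 0.128).

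Microglia also express Adgre1, and their own markers were tested beside it. Of 15 tested microglial genes 3 passed, all higher in Vglut2:Ndufs4cKO mice, against 0.777% of all 10427 tested genes as higher and 0.0288% as lower. These were Gpr84, a receptor induced in inflamed microglia (log2 fold change 1.93, adjusted p = 0.0153), Fcrls, a microglial Fc receptor-like protein (1.33, adjusted p = 0.0153), and Trem2, a receptor for lipids (1.71, adjusted p = 0.0231). The other 12 did not pass, such as Cx3cr1 at 1.01 (adjusted p = 0.0815), Tmem119 at 0.38, P2ry12 at 0.16 and Sall1 at 0.10. Cx3cr1, Tmem119, P2ry12 and Sall1 were named after their values were seen. The median log2 fold change over the 15 was 0.57. The summed signal was 15.37 to 15.91 in Vglut2:Ndufs4cKO mice and 14.91 to 15.14 in Vglut2:Ndufs4cCT mice, so that the groups did not overlap. Because linear signals were added, this sum mostly reflects its brightest gene, Sparc, named for that reason outside the rule for naming genes. Sparc averaged 15.20 in Vglut2:Ndufs4cKO mice and 14.63 in Vglut2:Ndufs4cCT mice (adjusted p = 0.144). The sums of other border macrophage markers, of other scavenger receptors, of Ccr2 ligands with their relatives and of monocyte genes separated the groups in the same direction. Those of the remaining lists overlapped. These sums also lean on their brightest genes, which were Ifitm3, Axl, Cx3cl1 and Ly6c1 in that order. None of these genes passed, and each overlapped between groups. Cx3cl1 and Ly6c1 had log2 fold changes of -0.045 and 0.19, while dimmer genes of their lists, Cx3cr1 and Lyz2, had 1.01 and 1.75. Cx3cl1 was also named after its value was seen. A separated sum is therefore not a separation of each gene in its list. Whether the Adgre1 signal came from microglia, border macrophages or infiltrating cells was not tested.

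**Figure D3:**
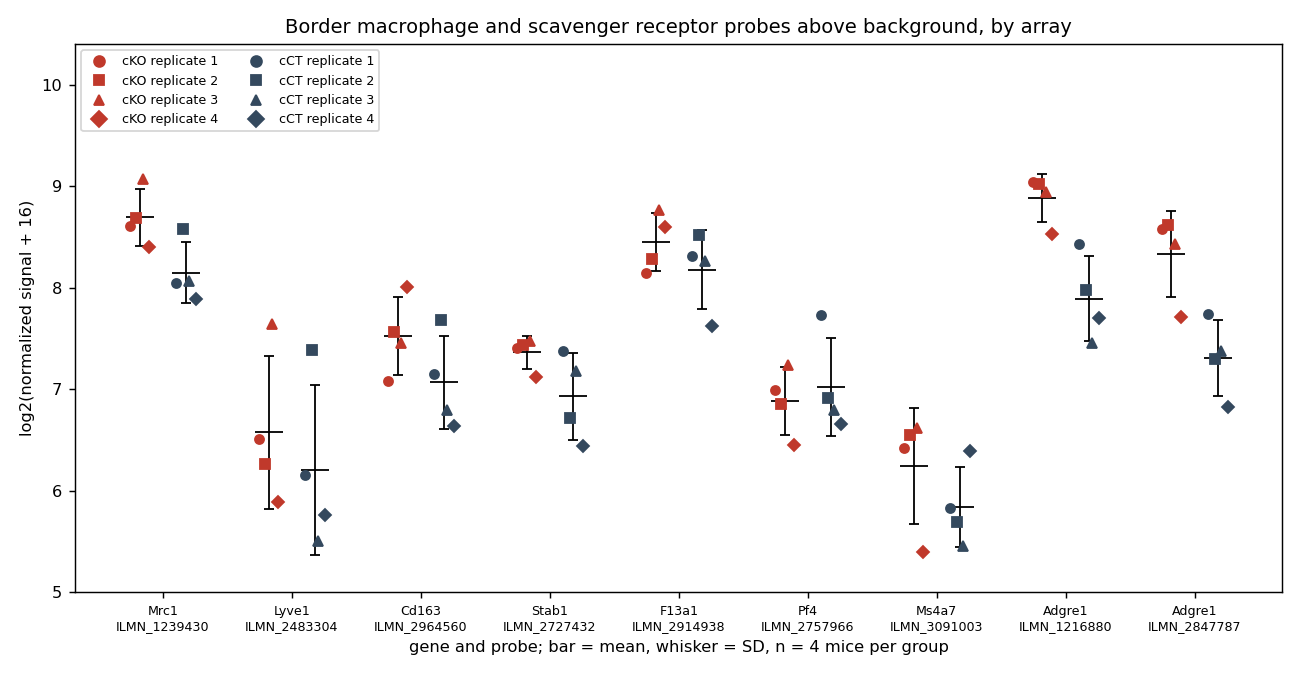
Log2 signal of the 9 tested probes on each array, Vglut2:Ndufs4cKO mice in red left of Vglut2:Ndufs4cCT mice in blue, with a marker shape per replicate, the mean (bar) and the SD (whisker, n = 4). ILMN_1216880 of Adgre1 separates the groups, Mrc1 and the other Adgre1 probe nearly do, and Lyve1 is spread widely in both.

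The within-array difference between ILMN_1216880 of Adgre1 and each of the 7 other tested genes was larger in Vglut2:Ndufs4cKO mice for all 7. The Adgre1 log2 fold change exceeded that of Mrc1 by 0.45, that of Stab1 by 0.56, that of F13a1 by 0.72 and that of Pf4 by 1.14. Two-sided exact permutation p-values, adjusted over the 7 genes, were 0.1 to 0.314, so none was under 0.05. Adgre1 was set against the others because its difference was the largest, so these values are a description and no conclusion is drawn from the p-values.

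Ccr2, the receptor that lets inflammatory monocytes leave bone marrow and blood, was not detected. The unnormalized signals of ILMN_1226563 were 180.8, 167.8, 174.8 and 159.9 in Vglut2:Ndufs4cKO mice and 182.1, 173.0, 166.8 and 184.7 in Vglut2:Ndufs4cCT mice, with detection p from 0.561 to 0.967. The lowest signal of any detected probe was 222.8 to 234.4 on Vglut2:Ndufs4cKO arrays and 235.8 to 262.2 on Vglut2:Ndufs4cCT arrays, so that a level of Ccr2 below these could not be seen. Of its ligands, Ccl12 rose, with log2 signals of 8.64, 9.19, 9.93 and 9.55 in Vglut2:Ndufs4cKO mice and 7.61, 6.74, 6.67 and 7.51 in Vglut2:Ndufs4cCT mice (log2 fold change 2.20, adjusted p = 0.0170). Ccl7 was at least 1.09-fold higher in Vglut2:Ndufs4cKO mice (adjusted p = 0.0170), a bound because 3 Vglut2:Ndufs4cKO arrays but no control array detected it. Ccl2 and Ccl8 were not tested because they were detected on too few arrays.

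Monocytes, the cells that Ccr2 guides, were followed by 9 further tested genes, of which 1 passed against 0.777% of all genes as higher, the lysozyme gene Lyz2 (log2 fold change 1.75, adjusted p = 0.0231), which macrophages and microglia also make. Without passing, Cd44, a hyaluronan receptor, was at 1.06 (adjusted p = 0.130), with no overlap between groups, and S100a6 at 0.70 (adjusted p = 0.394). The summed monocyte signal of 12.91 to 13.24 in Vglut2:Ndufs4cKO mice and 12.24 to 12.54 in Vglut2:Ndufs4cCT mice did not overlap between groups. It is weighted to the bright genes Ly6c1 and Lyz2. Ly6c1 averaged 11.96 in Vglut2:Ndufs4cKO mice and 11.77 in Vglut2:Ndufs4cCT mice (log2 fold change 0.19, adjusted p = 0.742), and Lyz2 averaged 11.40 and 9.65. Plac8 and Chil3, which mark inflammatory monocytes, were detected on 2 Vglut2:Ndufs4cKO arrays and 1 Vglut2:Ndufs4cCT array each. Their log2 fold changes were 0.10 (adjusted p = 0.930) and 0.11 (adjusted p = 0.913). Cd44, S100a6, Ly6c1, Plac8 and Chil3 were named after their values were seen.

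Further markers of border macrophages gave no call either. Of 25 such genes on the array 11 were tested and none passed, with a median log2 fold change of 0.29, against 0.02 over all tested genes. Before adjustment 4 of the 11 had a p under 0.05, all higher in Vglut2:Ndufs4cKO mice, against 6.86% of all tested probes in that direction. The summed signal was 13.25 to 13.76 in Vglut2:Ndufs4cKO mice and 12.75 to 13.19 in Vglut2:Ndufs4cCT mice, without overlap. That sum is weighted to bright genes such as Ifitm3, named after its value was seen, at 0.72 (adjusted p = 0.424). Folr2, Timd4, Siglec1, Clec10a and Cd209a were among the 14 that were not tested. The nearest to passing, named after its value was seen, was Ms4a6d, a relative of Ms4a7, at 1.48 ± 0.32 (log2 fold change and standard error), with adjusted p = 0.100 and no overlap between groups, where 5.81% of all tested probes did not overlap in either direction.

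Scavenger receptors of other families held 2 genes that passed among 15 tested, both higher in Vglut2:Ndufs4cKO mice, against 0.777% of all tested genes. Clec7a, the beta-glucan receptor dectin-1, was at least 5.92-fold higher in Vglut2:Ndufs4cKO mice (adjusted p = 0.000446), a bound because no Vglut2:Ndufs4cCT array detected it. Cd14, the lipopolysaccharide co-receptor, rose by 1.48 on the log2 scale, with a standard error of 0.13 (adjusted p = 0.00159). The class A relatives Scara3, Scara5 and Marco, named for their kinship to Msr1 outside the rule for naming genes, did not pass (log2 fold changes 0.66, 0.22 and 0.05). Of 14 tested genes that handle haemoglobin, collagen and hyaluronan, the cargo of Cd163, Mrc1 and Lyve1, none passed, with a median log2 fold change of 0.07. Before adjustment 2 of the 14 had a p under 0.05, both higher in Vglut2:Ndufs4cKO mice, against 6.86% of all tested probes in that direction. These, named after their values were seen, were Cd44 (1.06, adjusted p = 0.130) and Hmox1 (0.90, adjusted p = 0.144).

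**Figure D4:**
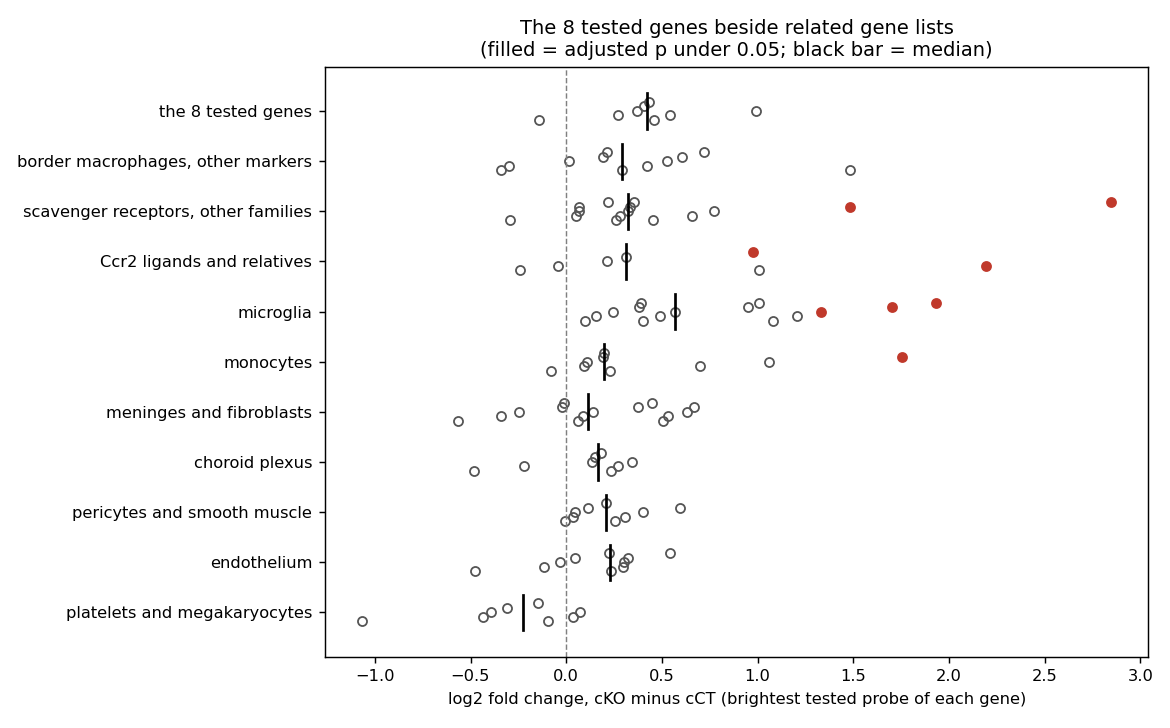
Log2 fold change, Vglut2:Ndufs4cKO minus Vglut2:Ndufs4cCT, of the brightest tested probe of each gene in the set and in 10 related gene lists (filled red where the adjusted p was under 0.05, black bar at the median). No gene of the set is filled, and the points of Clec7a at the far right and of Ccl7, the leftmost filled one, are fitted values for genes detected on no Vglut2:Ndufs4cCT array.

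Markers of the tissues that border macrophages inhabit varied between mice of a group. Of 14 meningeal and fibroblast genes, all tested, none passed, and their summed log2 signal was 14.86 to 15.20 in Vglut2:Ndufs4cKO mice and 14.25 to 15.41 in Vglut2:Ndufs4cCT mice. The matrix protein Dcn averaged 12.41 in Vglut2:Ndufs4cKO mice and 12.43 in Vglut2:Ndufs4cCT mice, and the growth factor Igf2 averaged 13.64 in Vglut2:Ndufs4cKO mice and 13.50 in Vglut2:Ndufs4cCT mice. Ttr, the thyroid hormone carrier of choroid plexus, had log2 signals of 11.29, 11.59, 12.12 and 15.27 in Vglut2:Ndufs4cKO mice and 13.02, 13.21, 10.86 and 12.44 in Vglut2:Ndufs4cCT mice. Clic6, also of choroid plexus, was likewise highest in Vglut2:Ndufs4cKO replicate 4, at 10.54.

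Vessel and blood markers did not pass either. None of 10 tested endothelial genes, 9 pericyte and smooth muscle genes or 4 blood genes did. The endothelial genes Flt1 and Egfl7 had log2 fold changes of -0.11 and 0.23, and the mural cell genes Acta2 and Vtn 0.26 and 0.21. Of the platelet genes, Gp5 was at -0.14 and F2rl2 at -0.31. Larger differences that did not pass, named after their values were seen, were those of the red cell genes Slc4a1 (-1.55, adjusted p = 0.327, no overlap between groups) and Hbb-bt (-0.56, adjusted p = 0.325). The platelet chemokine gene Ppbp went undetected in all Vglut2:Ndufs4cKO mice and was detected in 3 Vglut2:Ndufs4cCT mice (adjusted p = 0.230). The part of blood in the Pf4 and F13a1 values was not tested. Lymphatic endothelium, the other source of Lyve1, had 1 of 5 tested genes passing (0.777% of all genes did in that direction), the chemokine gene Ccl21b (log2 fold change 1.22, adjusted p = 0.0313), which has near-identical copies in the mouse genome that its probe may not separate. The others, named after their values were seen, were Ccl21a (1.30, adjusted p = 0.0509), Pdpn (0.28), Reln (0.05) and Prox1 (-0.23, adjusted p = 0.782). Flt4 was not tested. Whether the signals of these 5 genes, or of Lyve1, came from lymphatic endothelium was not tested either.

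Dendritic cell genes had 1 of 8 passing, in the direction in which 0.777% of all genes passed, the transcription factor gene Irf8 (log2 fold change 1.40, adjusted p = 0.0195), which microglia also express. None of 8 tested neutrophil genes and of 2 tested lymphocyte genes passed.

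The mice did not keep 1 order across the set. Vglut2:Ndufs4cKO replicate 3 was the highest of its group for 6 of the 9 probes, those of Mrc1, Lyve1, Stab1, F13a1, Pf4 and Ms4a7, and replicate 4 was the lowest of its group for 7. Cd163 ran the other way, with its highest signal in replicate 4. Among Vglut2:Ndufs4cCT mice, replicate 4 was the lowest for 6 probes, and replicate 2 was the highest for Mrc1, Lyve1, Cd163 and F13a1. Vglut2:Ndufs4cCT replicate 4 also had the lowest summed meningeal signal, at 14.25.

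**Figure D5:**
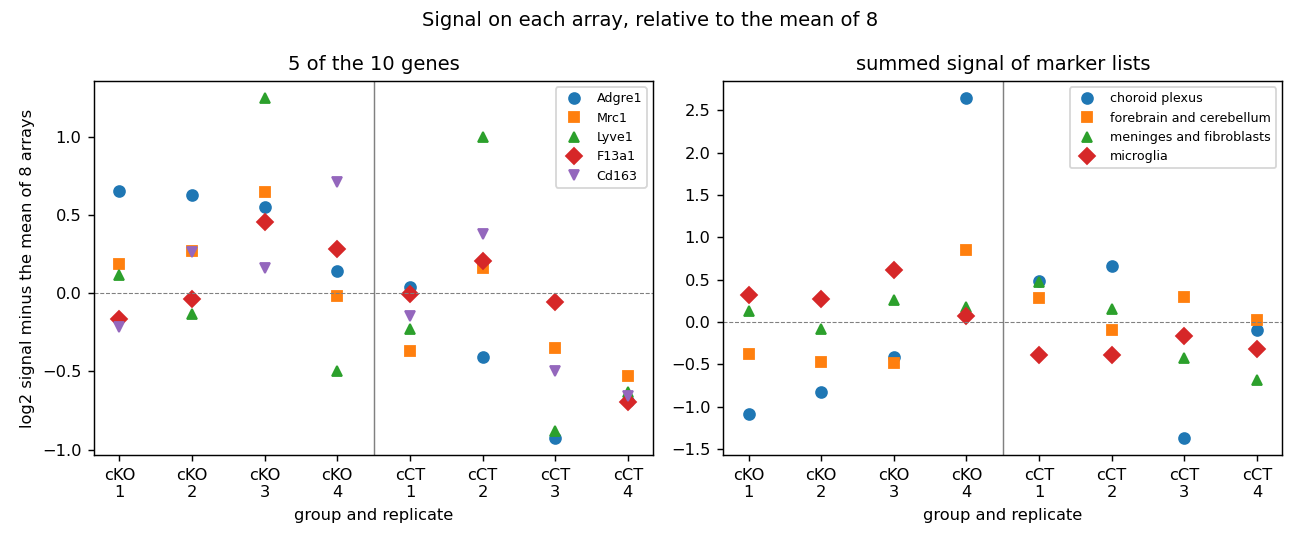
Log2 signal on each array minus the mean of all 8 arrays, for 5 genes of the set (left; Adgre1 by ILMN_1216880) and for the summed signal of 4 marker lists (right), Vglut2:Ndufs4cKO mice left of the line and Vglut2:Ndufs4cCT mice right of it. Choroid plexus markers are highest in Vglut2:Ndufs4cKO replicate 4, where Adgre1, Mrc1 and Lyve1 are the lowest of their group and Cd163 the highest.

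The promoters of the set were looked at for the binding words of 2 factor families, ETS factors such as PU.1, which directs macrophage genes, and GATA factors, which direct megakaryocyte genes, a choice made with the values known. RefSeq gave 9 promoters for 7 of the 10 genes on GRCm38.p6, each from 250 bases before to 50 after a start site. AGGAAGT, read on both strands, was in 3 of the 9, against 9.35% of 32851 mouse promoters of that length, and AGATAA in 2 of the 9, against 11.2%. The 3 promoters with AGGAAGT are printed with it and AGATAA in capitals, as AGGAAGT or ACTTCCT and AGATAA, since they show how differently the word is placed. The words did not overlap each other. In Mrc1 (chr2:14229164-14229463, plus strand) it lay on the opposite strand from -211 to -205 relative to the start site, in F13a1 (chr13:37049164-37049463, minus strand) on the same strand from -36 to -30 and from 16 to 22, and in Pf4 (chr5:90772185-90772484, plus strand) on the opposite strand from -10 to -4, with AGATAA from 37 to 42.
Mrc1: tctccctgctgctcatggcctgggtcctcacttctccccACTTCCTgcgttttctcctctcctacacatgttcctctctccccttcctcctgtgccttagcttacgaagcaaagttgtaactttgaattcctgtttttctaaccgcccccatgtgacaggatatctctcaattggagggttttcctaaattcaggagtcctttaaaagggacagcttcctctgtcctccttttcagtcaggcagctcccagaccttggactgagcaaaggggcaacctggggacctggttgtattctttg
F13a1: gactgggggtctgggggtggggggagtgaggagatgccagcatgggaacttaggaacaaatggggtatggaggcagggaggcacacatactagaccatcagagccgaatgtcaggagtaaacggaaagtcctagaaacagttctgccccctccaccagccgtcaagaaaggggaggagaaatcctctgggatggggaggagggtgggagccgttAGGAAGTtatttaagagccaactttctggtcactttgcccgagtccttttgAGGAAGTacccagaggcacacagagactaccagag
Pf4: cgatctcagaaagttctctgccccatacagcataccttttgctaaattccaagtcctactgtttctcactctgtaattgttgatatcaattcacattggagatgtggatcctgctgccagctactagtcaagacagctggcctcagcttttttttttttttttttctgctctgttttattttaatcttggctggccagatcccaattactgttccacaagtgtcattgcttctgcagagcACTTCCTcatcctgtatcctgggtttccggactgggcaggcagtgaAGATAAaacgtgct
A match describes the letters and is no proof of a site, and Mrc1, F13a1 and Pf4, which share the word, had log2 fold changes of 0.54, 0.27 and -0.14, none of which passed.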

How the data were processed

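Total RNA of whole brainstem was labelled and hybridised to Illumina MouseRef-8 v2 beadchips. The authors deposited, before normalization, the signal intensity, the detection p-value, the number of beads and the bead standard error of 25697 probes on each array. The labels named GenomeStudio, whose version is not given in the sources used here, and the authors' normalized table, a linear function of the same intensity, was used only as an alternative. No coordinates of the probes were used.

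With R 4.3.3 and limma 3.58.1, background was removed by the normexp model with its mean and SD inferred from detection p-values. Arrays were then brought to equal mean signal with a factor each (0.876 to 1.09), and values were put on the log2 scale after adding 16. Probes detected at p under 0.05 on at least 3 arrays were tested with lmFit and eBayes, with Benjamini-Hochberg adjustment over 15225 probes. Group differences of single values were also tested by two-sided exact permutation over 70 arrangements. The authors' custom error model was not repeated. The procedure was tested on simulated data.

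A gene outside the set is given by its brightest tested probe. Genes named were all probes of the 10 genes, the genes that passed in each of 18 marker lists (at most 4 per list), the 2 brightest genes of the lists beside border macrophages, and Ndufs4. Other genes given with values are marked as such. The 10 genes and the lists were chosen with earlier results of these data known. A fold for a gene under the limit in a whole group is set against the lowest signal of a detected probe on each array. The labels name separate mice only as replicates, so p-values measure the spread between these 8 arrays. Alternatives were other normalization, background, offsets and filters, the authors' table, moderation with a variance trend, array weights (statmod 1.5.0), the replicate number as a block, each array left out and, added after the data were seen, the choroid plexus level as a covariate.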

Additional observations from a re-analysis of the deposited data

Results flagged for a closer look

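In groups of 4 arrays, 54 sets of values (of single probes and of summed marker lists) were searched for 1 array whose gap to the nearest other was too large a share of the group's range by Dixon's test at 95%, and 6 were found, where chance gives about 1 in 20. Among the genes of the set, Ms4a7 (ILMN_3091003) had a low Vglut2:Ndufs4cKO replicate 4, with a gap of 0.835 of the range. The summed level of other border macrophage markers had a high Vglut2:Ndufs4cKO replicate 3 (0.922), the mouse with the highest Mrc1, Lyve1 and F13a1 of its group. Forebrain and cerebellum markers were high in Vglut2:Ndufs4cKO replicate 4 (0.918) and blood genes in Vglut2:Ndufs4cKO replicate 2 (0.892). Genes for haemoglobin, collagen and hyaluronan handling were low in Vglut2:Ndufs4cCT replicate 1 (0.909), and lymphocyte genes were high in Vglut2:Ndufs4cCT replicate 3 (0.907).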

How the results depend on the processing

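The log2 fold changes of the 9 tested probes were recomputed under 19 settings, and of 168 values 160 kept their direction and their side of the threshold. Both Adgre1 probes passed with array weights, ILMN_1216880 at 1.15 (adjusted p = 0.0162) and ILMN_2847787 at 1.30 (adjusted p = 0.0188), where 1.40% of all tested probes passed as higher, and the number of probes of the set that passed was then 2, against 0 to 2 with 1 array left out. With 1 array left out, ILMN_1216880 ranged from 0.85 to 1.17 and ILMN_2847787 from 0.86 to 1.23, each passing where given above. Pf4 changed sign with array weights (0.0147) and without Vglut2:Ndufs4cKO replicate 4 (0.002) or Vglut2:Ndufs4cCT replicate 1 (0.0937), and ranged from -0.26 to 0.09 with 1 array left out. Without background correction the log2 fold changes were 0.60 and 0.53 for the Adgre1 probes, 0.33 for Mrc1, 0.14 for Stab1 and 0.08 for Ms4a7. Lyve1, Pf4 and Ms4a7 gave no value under the strict filter. Over all probes, 102 passed as higher and 5 as lower. These counts were 213 and 27 with array weights, 30 to 234 and 0 to 123 with 1 array left out, and 3 lower with an offset of 50. Samples of the same replicate number did not deviate together (correlations -0.26 to -0.19). That cannot show whether the numbers pair the mice, and the labels do not say. With the replicate block 11 probes passed as higher and 0 as lower, none of them of the set. The choroid plexus level as a covariate changed no call in the set (Adgre1 ILMN_2847787 1.05, adjusted p = 0.0872). Dim probes near the detection limit, such as those of Lyve1 and Ms4a7, limit what these 8 arrays can show, and the offset shrinks their fold changes.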
